A study of Mus musculus with 8 samples.

Results

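The 34 genes described here act in G2 and mitosis, the last stages of the cell cycle. They were chosen by name: a gene belongs to the list if its symbol was given and its row was found in each of the 4 RNA matrices, and all 34 were found among the 32285 gene rows. A dividing cell copies its DNA in S phase, checks it in G2, and then condenses, aligns and separates its chromosomes in mitosis under the control of cyclin B and its kinase Cdk1. Transcripts of these genes are scarce in resting cells, build up together late in the cycle, and many of the proteins are destroyed through the anaphase-promoting complex (APC/C) as mitosis ends. In T cells the programme is known to be switched on after antigen recognition, during clonal expansion, and to be low in resting memory cells.

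The cells were conventional CD4+ T cells from Foxp3-Cre-YFP mice, in which the Foxp3 promoter drives Cre and YFP so that regulatory T cells are marked and can be left out. The mice had experimental autoimmune encephalomyelitis (EAE), an induced autoimmune disease of the central nervous system used as a model of multiple sclerosis, and all groups shared this genotype and immunization. TCRβ+ CD11b- cells that were CD44+ (antigen-experienced) and Foxp3-YFP- were sorted from the brain, with its meninges removed, and from the spinal cord, at day 14 (acute phase) and day 50 (chronic phase). RNA and the surface proteins CD69, P2RX7 and CXCR6 were counted in single cells by CITE-seq, with 1 RNA library per tissue and day. The mice's age and the number of mice per library were not given in the sources used here.

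With 1 library per group there was no test across animals. Cells of a library are not replicates, so no p-value is given, and every 95% interval covers counting error only. After filtering, the day 14 libraries held 10313 cells in brain and 9270 in spinal cord, and the day 50 libraries held 348 and 1620. They summed to 47272714, 50710551, 1177903 and 6078142 unique molecular identifiers (UMIs, each standing for 1 captured RNA molecule) in the same order. At least 99.7% of the cells of each library had a T cell receptor or CD3 UMI. Foxp3 had between 0 and 2 UMIs per library, and summed markers lay between 4.25 and 6.63 CPM for CD8 T cells, 0.658 and 1.70 CPM for B cells and 0.849 and 4.12 CPM for myeloid cells. The sums were larger for oligodendrocytes (50.4 and 75.5 CPM in brain and spinal cord at day 14, 45.8 and 52.8 CPM at day 50) and endothelial cells (39.8, 60.3, 30.6 and 16.1 CPM in that order). Most of these UMIs came from Mbp and Pecam1, while Mog and Cldn5 had 0 or 1 UMI per library. Dendritic cell markers were at 53.5 CPM in brain at day 50 and at 10.6, 10.5 and 7.24 CPM in the brain and spinal cord at day 14 and the spinal cord at day 50; Cd74 gave all 63 UMIs of the first, and Flt3 had 0 in every library. The part of these transcripts in the results was not tested. Between 2 and 39 of the kept barcodes of a library also occurred in another library. The share of UMIs from ribosomal protein genes was 34.1% in brain and 30.8% in spinal cord at day 14, and 36.4% and 37.6% at day 50; the part of this in the results was not tested.

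Levels are given in CPM, the UMIs of a gene per 1000000 UMIs of its library, counted from transcript 3′ ends and not divided by gene length. Summed over the list, brain had 1967 CPM at day 14 and 1524 CPM at day 50, and spinal cord had 1456 and 1278 CPM. Hmgb2, a chromatin protein that many cells express outside mitosis, made up between 63.0% and 73.0% of the list's UMIs in cells thinned to the same depth. Without Hmgb2 and the other two broadly expressed members, the condensin subunit Smc4 and the tubulin Tubb4b, the sums were 597 and 387 CPM in brain and 417 and 195 CPM in spinal cord at day 14 and day 50. In CPM the sum was higher in brain than in spinal cord on each day and higher at day 14 than at day 50 in each tissue, with or without these 3 genes.

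**Figure D1:**
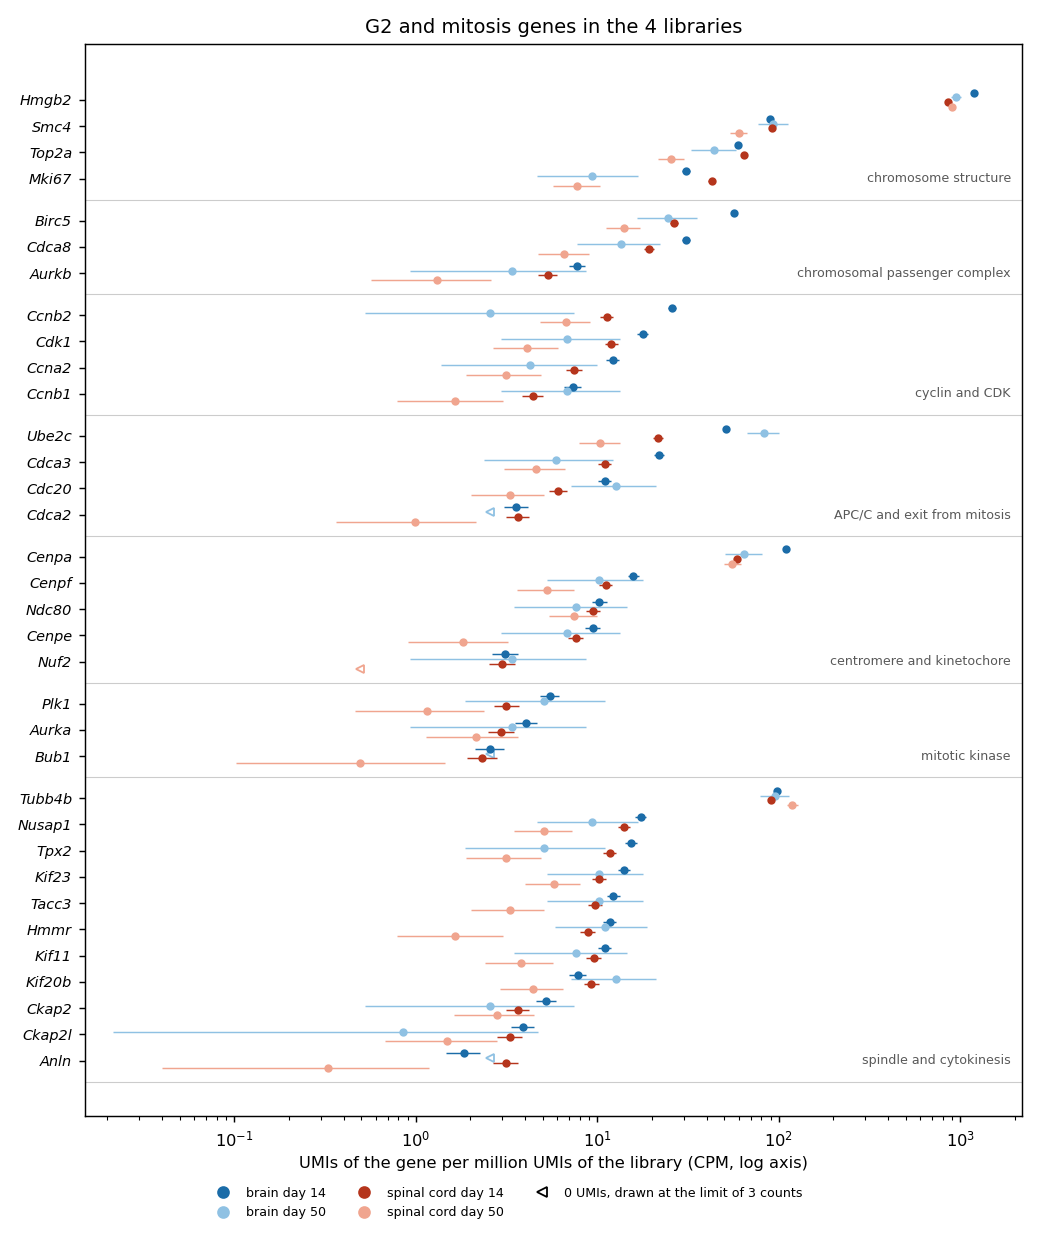
Level of each of the 34 genes in each library, in CPM on a log axis, grouped by role. Points are single libraries, bars are exact Poisson 95% intervals, and open triangles stand at the limit that a count of 0 allows. Most genes are highest in 1 of the day 14 libraries and lowest in spinal cord at day 50, and the bars of the day 50 brain library, which holds 348 cells, are wide.

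Ratios between 2 libraries were centred, that is, the median log2 ratio of all compared genes was subtracted, and genes with at least 10 UMIs over both libraries were compared. A gene was called higher or lower where the centred ratio was at least 1.5-fold and its interval excluded 1. In spinal cord against brain at day 14, 18 of the 34 members were called lower and 0 higher. The background was 6.24% of 13868 genes lower and 6.4% higher, and the members' median log2 ratio was -0.63 against 0 for all genes. Without centring, which had subtracted a shift of 0.20, 10 members were called lower and 1 higher. In spinal cord, day 50 against day 14, 23 members were called lower and 1 higher. The background there was 11.6% lower and 11.9% higher, and the median was -1.0. In cells thinned to the same depth, 12 were called lower. In brain, day 50 against day 14, 10 members were called lower and 1 higher against a background of 6.15% and 4.91%, with a median of -0.49, and 4 were called lower in thinned cells. The summed list in spinal cord had a log2 ratio of 0.10 over time when Hmgb2, Smc4 and Tubb4b were counted and of -0.81 when they were not. At day 50, spinal cord against brain, 12 of the 30 members that could be compared were called lower and 0 higher against 4.72% and 2.26%, with a median of -0.83, and 2 were called lower in thinned cells. The shares of all genes called without centring or in thinned cells are not given. The backgrounds above hold for the main setting, and counts under the other settings cannot be read against them. Comparisons that use the same library are not independent of each other: each of the 4 libraries enters a comparison of days and a comparison of tissues.

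Among the genes of chromosome structure, Mki67 encodes the Ki-67 protein that coats mitotic chromosomes and is widely used as a marker of cycling cells. Its level was 30.8 CPM in brain and 42.7 CPM in spinal cord at day 14, and 9.34 and 7.73 CPM at day 50. Spinal cord was the higher tissue at day 14, unlike for most members, with a centred log2 ratio of 0.27 over brain (interval 0.18 to 0.37) that did not reach the size for a call. In spinal cord it was called lower at day 50, with a log2 ratio of -2.18, and in brain with -1.74. Top2a, the topoisomerase that untangles sister chromatids, was at 59.4 and 64.0 CPM in brain and spinal cord at day 14 and at 44.1 and 25.5 CPM at day 50. The day 50 levels were lower than both day 14 levels, and spinal cord was the tissue with a call (log2 ratio -1.04).

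Smc4 was at 89.9, 93.4 and 92.2 CPM in brain at day 14, brain at day 50 and spinal cord at day 14, and at 60.1 CPM in spinal cord at day 50. The last library was the low one, and the gene was called lower there than in brain at day 50 (log2 ratio -0.67). Hmgb2 was at 1183 CPM in brain and 856 CPM in spinal cord at day 14, and at 948 and 904 CPM at day 50. It was called lower in spinal cord than in brain at day 14, with a log2 ratio of -0.67. No other comparison of Hmgb2 was called.

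All 4 cyclin and kinase genes were called lower in spinal cord than in brain at day 14, against 6.24% of all genes. Ccnb1 (cyclin B1, which activates Cdk1 to start mitosis) was at 7.34 CPM in brain and 4.40 CPM in spinal cord at day 14, and at 6.79 and 1.65 CPM at day 50, the last resting on 10 UMIs. Ccnb2 (cyclin B2) was at 25.8 and 11.3 CPM at day 14, and at 2.55 and 6.75 CPM at day 50. Brain was higher at day 14 for both cyclins, and at day 50 the brain value of Ccnb2 rested on 3 UMIs, a log2 ratio of -3.36 against day 14 with an interval from -5.64 to -1.81. Ccna2 (cyclin A2, active from S phase into early mitosis) was at 12.1 and 7.41 CPM at day 14, and at 4.24 and 3.13 CPM at day 50. Cdk1 was at 17.8 and 12 CPM at day 14, and at 6.79 and 4.11 CPM at day 50. Both were ordered alike, brain over spinal cord and day 14 over day 50. Their day 50 brain values rested on 5 and 8 UMIs. The intervals of their tissue ratios at day 50 included 0 (-1.94 to 1.31 and -1.95 to 0.61). The centred log2 ratios of spinal cord over brain at day 14 were -0.94 for Ccnb1, -1.39 for Ccnb2, -0.91 for Ccna2 and -0.78 for Cdk1.

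These genes are known to share promoter elements: the CCAAT box, bound by NF-Y, and the cell cycle genes homology region (CHR, TTTGAA or TTCGAA), through which the DREAM and MuvB complexes hold the genes off in resting cells and switch them on late in the cycle. RefSeq promoters of GRCm38.p6 matched 29 of the 34 genes; Ccna2, Aurkb, Tpx2, Cdca2 and Smc4 had no entry. The 250 bases before the start were searched for CCAAT and for TTTGAA or TTCGAA on both strands. The start is that of the first promoter entry of a gene and can lie inside its annotated locus. The Mki67 locus reaches base 135716450, inside the Mki67 window, and the Cdca3 window lies wholly inside its locus. The 5 promoters shown are those of the 3 members with the lowest ratio at day 14 (Ube2c, Ccnb2, Birc5), of Cdk1, and of Mki67, one of the 3 with the highest ratio. They are written 5′ to 3′ in the direction of transcription and end at the base before the start, with the matches in capitals (ATTGG and TTCAAA are the matches on the opposite strand). They lie at chr2:164769679-164769928 (plus strand) for Ube2c, chr9:70421555-70421804 (minus) for Ccnb2, chr10:69352913-69353162 (minus) for Cdk1, chr11:117848987-117849236 (plus) for Birc5 and chr7:135716380-135716629 (minus) for Mki67.
Ube2c: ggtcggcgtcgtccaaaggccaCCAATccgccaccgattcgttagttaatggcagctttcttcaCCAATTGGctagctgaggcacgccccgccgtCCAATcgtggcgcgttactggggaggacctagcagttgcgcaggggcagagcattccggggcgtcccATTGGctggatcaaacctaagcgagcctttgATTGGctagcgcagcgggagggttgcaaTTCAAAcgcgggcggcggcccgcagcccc
Ccnb2: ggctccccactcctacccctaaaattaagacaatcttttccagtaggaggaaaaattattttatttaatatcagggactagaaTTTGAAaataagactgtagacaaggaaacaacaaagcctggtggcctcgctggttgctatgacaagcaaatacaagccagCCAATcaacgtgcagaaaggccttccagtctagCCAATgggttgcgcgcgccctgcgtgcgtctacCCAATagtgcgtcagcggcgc
Cdk1: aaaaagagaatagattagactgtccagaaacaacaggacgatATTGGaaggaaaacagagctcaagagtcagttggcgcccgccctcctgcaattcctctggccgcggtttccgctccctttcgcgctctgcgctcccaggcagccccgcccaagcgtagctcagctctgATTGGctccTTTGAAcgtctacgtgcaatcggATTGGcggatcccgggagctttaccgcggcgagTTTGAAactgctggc
Birc5: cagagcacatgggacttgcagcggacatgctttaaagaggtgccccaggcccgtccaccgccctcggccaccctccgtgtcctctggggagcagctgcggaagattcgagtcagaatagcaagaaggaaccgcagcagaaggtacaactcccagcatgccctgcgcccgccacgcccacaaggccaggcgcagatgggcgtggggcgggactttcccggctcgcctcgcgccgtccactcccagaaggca
Mki67: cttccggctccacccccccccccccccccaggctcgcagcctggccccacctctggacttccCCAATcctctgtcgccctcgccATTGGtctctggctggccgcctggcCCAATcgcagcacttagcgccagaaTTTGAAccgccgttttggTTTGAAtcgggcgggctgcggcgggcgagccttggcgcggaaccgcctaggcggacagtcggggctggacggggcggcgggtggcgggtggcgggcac
Ube2c had 6 CCAAT matches, of which a pair overlaps as CCAATTGG, and a TTTGAA match that ended 23 bases before the start. In Cdk1 a TTTGAA match ended 9 bases before the start, with CCAAT matches 43 and 75 bases before it. Ccnb2 had CCAAT matches 16, 49 and 82 bases before the start. Birc5 had no match in this window, and Mki67 had 3 CCAAT and 2 TTTGAA matches, the nearest of them 92 bases before the start.

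A CCAAT match was found in 22 of the 29 promoters (75.9%) against 34.5% of 27018 promoters of the same length, and at least 2 in 17 (58.6%) against 10.5%. A TTTGAA or TTCGAA match was found in 11 (37.9%) against 17.4%. A pair of CCAAT matches 31 to 33 bases apart, a spacing looked at after the first 5 promoters had been read, occurred in 8 promoters (27.6%) against 0.944% of all. These 8 were Ccnb1, Ccnb2, Cdk1, Ube2c, Aurka, Hmmr, Cdca3 and Tubb4b. Ube2c, Ccnb2 and Cdk1, shown above, have this spacing and are counted among the 8. The share was therefore favoured in advance. Since promoters shown for their low ratio led to this spacing, no ratio is given for the group. In spinal cord against brain at day 14, the 17 promoters with at least 2 CCAAT matches had a median of -0.71 and 12 calls lower. The 5 with 1 match (Cenpe, Kif11, Kif23, Ckap2 and Plk1) had a similar median of -0.66 and 3 calls. The 7 with none (Birc5, Nusap1, Kif20b, Tacc3, Ndc80, Nuf2 and Anln) had a median of -0.32 and 1 call. Locus length, set beside these ratios further below, was not held equal here. Nusap1, Kif20b, Ndc80, Nuf2 and Anln have loci of 30 kb or more. Tacc3 has 14076 bases and Birc5, the gene called, 6507. The part of locus length in these medians was not tested. Over all genes 6.24% were called lower, a share not split by CCAAT matches. A match is a stretch of letters and does not show that a factor binds there.

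The chromosomal passenger complex corrects the attachment of chromosomes to the spindle and guides cytokinesis. Birc5 (survivin, its targeting subunit) was at 56.6 CPM in brain and 26.4 CPM in spinal cord at day 14, and at 24.6 and 14.0 CPM at day 50. Aurkb, its kinase, was at 7.74 and 5.34 CPM at day 14, and at 3.40 and 1.32 CPM at day 50, on 4 and 8 UMIs. Cdca8 (borealin) was at 30.7 and 19.2 CPM at day 14, and at 13.6 and 6.58 CPM at day 50. Each of the 3 was ordered brain over spinal cord on both days and day 14 over day 50 in both tissues. Birc5 and Cdca8 were called lower in all 4 comparisons, and Aurkb in spinal cord over time and between tissues at day 14. In the day 50 brain library 86.2% of the 29 UMIs of Birc5 and 93.8% of the 16 of Cdca8 came from 2 cells. Without the 2 richest cells of each gene their ratios between tissues at day 50 turned to 1.11 and 2.14 and were not called, and the other 3 calls of each were kept. The log2 ratios of Birc5 were -1.22 over time in brain, -0.63 over time in spinal cord, -1.30 between tissues at day 14 and -0.84 at day 50.

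The other mitotic kinases were counted at low depth. Plk1, which drives entry into and progress through mitosis, was at 5.46 and 3.16 CPM in brain and spinal cord at day 14, and at 5.09 and 1.15 CPM at day 50, where it rested on 6 and 7 UMIs. Aurka, which matures the spindle poles, was at 4.06 and 2.96 CPM at day 14. Bub1, a kinase of the spindle checkpoint, was at 2.56 and 2.33 CPM at day 14, and had 0 UMIs in brain and 3 in spinal cord at day 50. Plk1 and Aurka were called lower in spinal cord at day 14, with log2 ratios of -0.99 and -0.66, and Bub1 was not called (-0.34). No member of this role was called over time in brain, where the floor of 3 counts put in for a count of 0 is 2.55 CPM.

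At the centromere and kinetochore, Cenpa, the histone that marks the centromere, was at 109.8 CPM in brain and 59.1 CPM in spinal cord at day 14, and at 64.5 and 55.4 CPM at day 50. Brain at day 14 stood apart from the other 3 libraries, which lay within 10 CPM of each other, and Cenpa was called lower in spinal cord at day 14 (-1.09) and in brain at day 50 (-0.79). Cenpf, a large kinetochore protein that is made in G2, was at 15.8 and 11.1 CPM at day 14, and at 10.2 and 5.26 CPM at day 50. Cenpe, the kinetochore motor, was at 9.46 and 7.59 CPM at day 14, and at 6.79 and 1.81 CPM at day 50. Cenpf was called lower in spinal cord at day 14 (-0.71), and both were called lower in spinal cord over time (-0.79 and -1.78). Ndc80 and Nuf2, which form the complex that grips microtubules, were not called between tissues at day 14 (-0.32 and -0.25). In spinal cord Nuf2 had 152 UMIs at day 14 and 0 at day 50, which with the floor of 3 counts makes it at least 4.97-fold lower, whereas Ndc80 had a log2 ratio of -0.06 over the same time.

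Of the genes that act with the APC/C and at mitotic exit, Ube2c, the ubiquitin-conjugating enzyme of the APC/C, was at 51.1 CPM in brain and 21.6 CPM in spinal cord at day 14, and at 82.3 and 10.4 CPM at day 50. It was the lowest member in spinal cord against brain on day 14, at 2.72-fold, and on day 50, at 8.10-fold. In spinal cord it was called lower at day 50 (log2 ratio -0.77) and in brain higher (0.67), but 97.9% of its 97 UMIs in the day 50 brain library came from 2 cells. Cdc20, the activator of the APC/C, was at 11 and 6.07 CPM at day 14, and at 12.7 and 3.29 CPM at day 50. It was called lower in spinal cord on both days (-1.05 and -1.98). On day 50 93.3% of its 15 UMIs in brain came from 2 cells, and without the 2 richest cells the ratios of Cdc20 and Ube2c turned to 0.90 and 1.03 and were not called. Cdca3, known as a trigger of mitotic entry, was at 21.9 and 11 CPM at day 14 and called lower in spinal cord (-1.20), and Cdca2, which recruits a phosphatase to chromosomes as mitosis ends, was at 3.58 and 3.65 CPM and was not called (-0.17).

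Of the 11 spindle and cytokinesis genes, 3 were called lower in spinal cord at day 14, against 6.24% of all genes. The median log2 ratio of the 11 was -0.50. The 3 were Kif23 (-0.66), a motor of the central spindle, Hmmr (-0.60), which organizes spindle poles, and Ckap2 (-0.71), a microtubule-binding protein. Anln, a scaffold of the contractile ring, was the highest of all members: 1.84 CPM in brain and 3.14 CPM in spinal cord at day 14, a log2 ratio of 0.57 that fell short of the 1.5-fold needed, though its interval of 0.18 to 0.96 excluded 0. Kif20b, another motor of cytokinesis, was at 7.78 and 9.29 CPM, with a log2 ratio of 0.05. Without centring, Anln was called higher, at 0.77.

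Over time in spinal cord this role had 7 of 11 members called lower and 1 higher, against 11.6% and 11.9% of all genes. Anln had 159 UMIs at day 14 and 2 at day 50, a log2 ratio of -2.96 with an interval from -6.02 to -1.09. Hmmr (-2.14), the kinesin Kif11 (-1.05), the Aurora A activator Tpx2 (-1.62), the spindle protein Tacc3 (-1.28), Nusap1 (-1.18), which bundles microtubules at chromosomes, and Kif20b (-0.78) were also called lower. Tubb4b, a β-tubulin, was at 97.5 and 90.1 CPM in brain and spinal cord at day 14, and at 95.1 and 119 CPM at day 50. It was the member called higher in spinal cord over time (0.69), a call that was lost without centring.

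To see whether the transcripts sat in few or many cells, each cell was thinned to 2000 UMIs, which kept 9150 and 9128 cells of the day 14 libraries and 250 and 1493 of the day 50 libraries in brain and spinal cord, and its members with a UMI were counted. A cell with at least 5 of the 34 is called a carrying cell here. Carrying cells numbered 386 in brain at day 14 (4.22%, interval 3.82 to 4.65) and 200 in spinal cord at day 14 (2.19%, 1.90 to 2.51). At day 50 there were 3 in brain (1.20%, 0.248 to 3.47) and 10 in spinal cord (0.670%, 0.322 to 1.23). The day 14 intervals do not overlap, and spinal cord had 1.93-fold fewer carrying cells than brain. Over time the share was 3.27-fold lower in spinal cord and, on 3 cells, 3.51-fold lower in brain, and at day 50 the interval of the log2 ratio between tissues ran from -2.80 to 1.66. Without thinning, the carrying cells were 8.02% of brain and 7.58% of spinal cord cells at day 14, and the log2 ratio of the shares was -0.08 (interval -0.23 to 0.07) in place of -0.95, and with at least 3 members required it was -0.39. Spinal cord cells were deeper, with a median of 4921 UMIs against 4004 in brain.

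**Figure D2:**
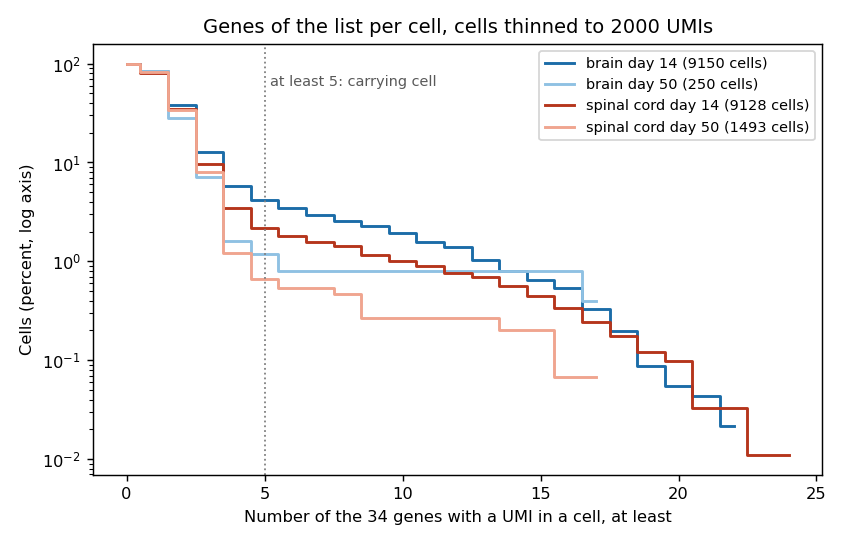
Share of cells, in percent on a log axis, with at least the given number of the 34 genes detected after thinning to 2000 UMIs; each line is 1 library and the dotted line marks the 5 genes that define a carrying cell. At 5 genes brain at day 14 stands at 4.22% and spinal cord at day 14 at 2.19%, and the day 50 lines end at 17 genes.

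A carrying cell of the day 14 libraries held a median of 9 members in both tissues, with 23 UMIs of the list in brain and 22 in spinal cord, about 1.15% and 1.10% of its UMIs against a median of 0.10% in other cells. The richest cells held 22 members in brain and 24 in spinal cord. In contrast, 69.8% of brain cells and 73.5% of spinal cord cells had no UMI of the 31 narrower members. Birc5 was among the genes most confined to carrying cells, which for this purpose were defined on the other 33 genes: 83.4% of its UMIs in brain and 85.6% in spinal cord came from them. For Smc4 these shares were 14.5% and 8.42%, and for Hmgb2 21.3% and 13.3%, although Hmgb2 averaged 12.7 UMIs per carrying cell in brain and 11.5 in spinal cord. No cell type that should lack these genes was at hand, so the share of UMIs from free RNA could not be measured. Carrying cells were deeper before thinning, with median UMIs of 8082 against 4246 in other brain cells and 9580 against 4913 in other spinal cord cells.

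The S phase genes gave a different day 14 comparison. Cells with at least 5 of 35 S phase genes (the Mcm2 to Mcm7 helicase subunits, Pcna, Rrm2, Tyms and others that copy DNA) made up 4.21% of brain cells (385 cells, interval 3.81 to 4.64) and 4.26% of spinal cord cells (389 cells, 3.86 to 4.70). The log2 ratio of these shares was 0.02 with an interval from -0.19 to 0.23, beside -0.95 (-1.20 to -0.70) for the G2 and mitosis genes. Of cells carrying either list, 33% in brain carried the G2 and mitosis genes alone (190 of 575, interval 29.2 to 37.1) and 15.8% in spinal cord (73 of 462, 12.6 to 19.5). Those carrying the S phase genes alone were 32.9% in brain (189 cells) and 56.7% in spinal cord (262 cells), and those carrying both were 34.1% and 27.5%. With at least 8 genes of each list required, the S phase shares were 2.02% and 2.04% and the G2 and mitosis shares 2.54% and 1.41%. With at least 3 genes the S phase shares were 14.3% and 16.1%, a log2 ratio of 0.17 (0.06 to 0.28). Without thinning they were 14.2% and 20.3%, a ratio of 0.51 (0.41 to 0.61), while the interval of the G2 and mitosis ratio then included 0.

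**Figure D3:**
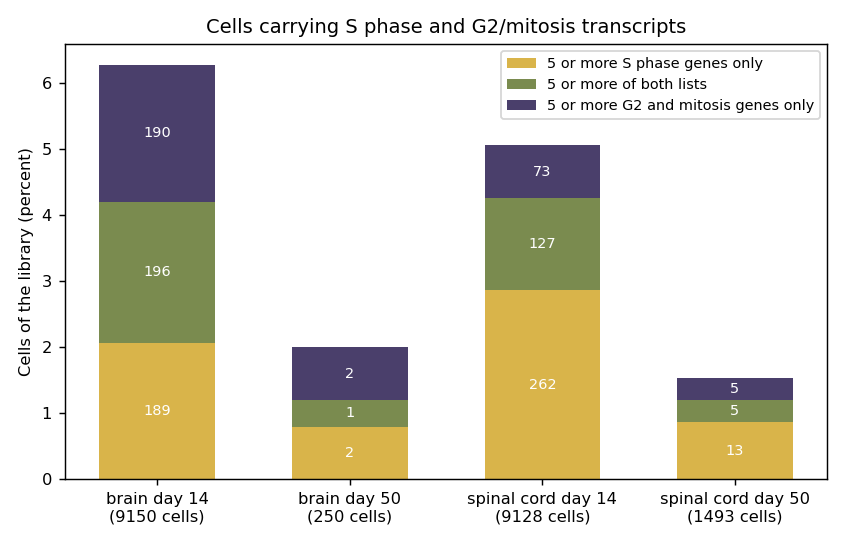
Cells with at least 5 S phase genes, at least 5 G2 and mitosis genes, or both, as percent of the cells of each library after thinning to 2000 UMIs, with the number of cells in each part of a bar. The G2 and mitosis part is 190 cells in brain and 73 in spinal cord at day 14, and the S phase part is 189 and 262.

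By gene, 2 of 35 S phase genes were called lower in spinal cord at day 14, Pclaf (-0.59) and Tk1 (-0.69), and 0 higher, with a median log2 ratio of -0.11. That is 5.71% of the list, against 6.24% of all genes. A second list of 59 G2 and mitosis genes outside the 34 had 22 called lower (37.3%), 1 higher (1.69%, against 6.4% of all genes) and a median of -0.44. Its lower genes included Kif18b (-1.18) and Psrc1 (-1.17), which act on spindle microtubules, Knstrn (-1.03), a kinetochore and spindle protein, and Pimreg (-1.08). Its higher gene was Kif18a (0.60), the kinesin that limits chromosome movement. Of 10 G1 cyclins and drivers, 0 were called in either direction at 1.5-fold with the interval, and their median was 0.06. The 20 cell cycle inhibitors and quiescence genes had 4 called lower (20%), Cdkn1a (-1.02) and Cdkn1c (-1.18), which inhibit cyclin-dependent kinases, Klf2 (-1.48), a factor of T cell quiescence, and Tob1 (-0.89), an antiproliferative protein, and 1 higher (5%, under the 6.4% of all genes), Rbl2 (0.64), which encodes the DREAM subunit p130.

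The day 14 tissues were also compared inside carrying cells. With carrying cells defined on the other 33 genes for each gene, and ratios centred on the 7269 genes compared there, 3 members were called higher in spinal cord and 1 lower, against a background of 4.44% and 3.98%. Calls this few are not read as a result about the list. The median log2 ratio was -0.04 and 17 of 34 were above 0. Carrying cells were chosen in both tissues by the same cut-off on genes that rise together. A median near 0 was therefore favoured in advance, and it does not show that levels per cell were alike. Mki67 averaged 1.32 UMIs per carrying cell in spinal cord and 0.591 in brain, a centred log2 ratio of 0.99 (interval 0.72 to 1.26). Top2a averaged 1.46 and 0.786, a ratio of 0.72 (0.48 to 0.97), and Bub1, on few UMIs, had 1.40 (0.46 to 2.37). Cenpa was the gene called lower, with 0.934 UMIs per carrying cell in spinal cord and 1.41 in brain and a ratio of -0.77 (-1.03 to -0.51). For Ube2c, the lowest member over all cells, the ratio inside carrying cells was -0.51 (-0.79 to -0.24), which did not reach 1.5-fold.

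These cells differ in how many also carried S phase genes, 63.5% in spinal cord and 50.8% in brain. Restricted to the carrying cells without 5 S phase genes, 73 in spinal cord and 190 in brain, Mki67 had a ratio of 0.99 (0.50 to 1.48), Top2a -0.12 (-0.77 to 0.49), Bub1, on 5 and 7 UMIs, 0.78 (-1.22 to 2.65), and Cenpa -0.41 (-0.71 to -0.12). The part of S phase genes in the ratios was not tested.

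**Figure D4:**
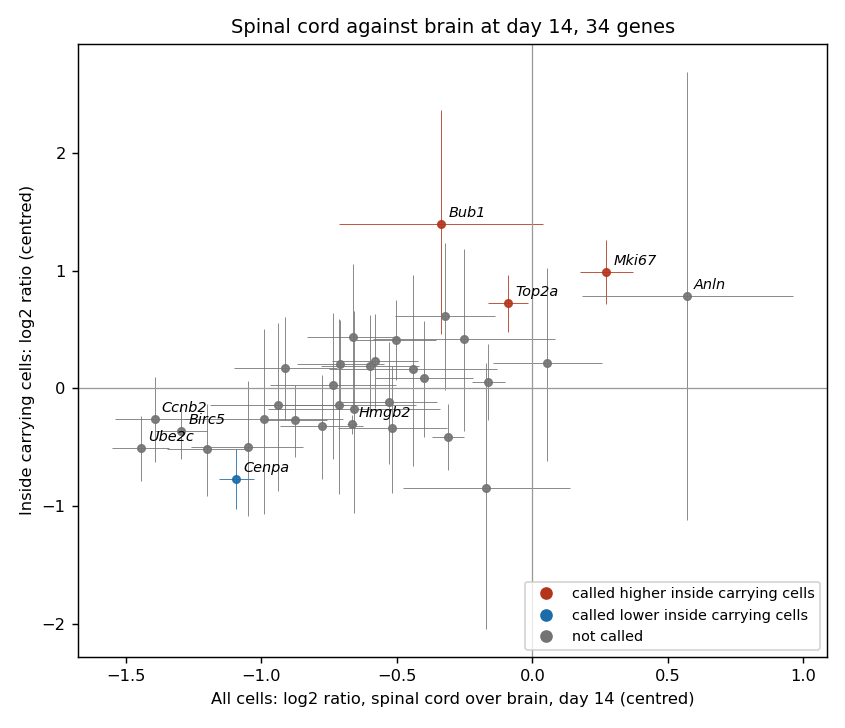
Centred log2 ratio of spinal cord over brain at day 14 for each of the 34 genes, over all cells (horizontal) and inside carrying cells defined on the other 33 genes (vertical); bars are 95% intervals of counting error. Over all cells 31 genes lie left of 0. Inside carrying cells 17 lie above 0, a split near the middle that the choice of these cells favoured in advance. Mki67, Top2a and Bub1 were called higher there, at 0.99, 0.72 and 1.40.

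The share of members called lower in spinal cord at day 14 differed with the length of the locus in the RefSeq annotation. Of 10 members under 10 kb, 9 were called lower, with a median log2 ratio of -1.0, the exception being Tubb4b (-0.31). Of 11 members between 10 and 30 kb, 7 were called lower (median -0.66), and of 13 members of 30 kb or more, 2 (median -0.34). Over all genes 6.24% were called lower, a share not split by locus length. Across the 34 members the Spearman coefficient between locus length and log2 ratio was 0.66, and across 12796 genes with a length it was 0.27. All points share the same libraries and depth, and genes are not independent replicates. Inside carrying cells the coefficient over the members was 0.58, and between days it was -0.49 in spinal cord and 0.10 in brain. Over all genes the medians were -0.14 under 10 kb, -0.03 from 10 to 30 kb and 0.16 above. The part of locus length in the members' ratios was not tested.

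**Figure D5:**
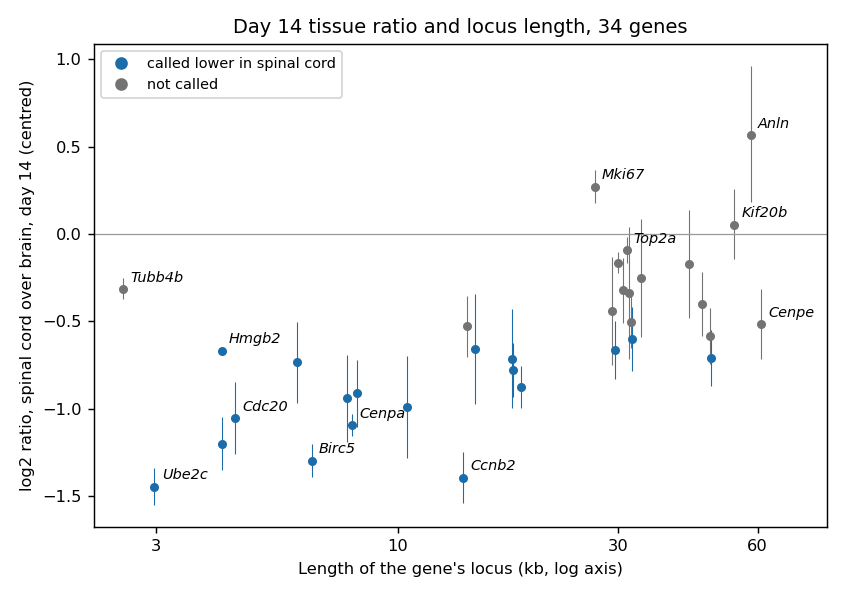
Centred log2 ratio of spinal cord over brain at day 14 against the length of each gene's locus in kb on a log axis; points are the 34 genes, blue where called lower in spinal cord, with 95% intervals of counting error. The 10 genes under 10 kb lie between -1.45 and -0.31, and Mki67, Kif20b and Anln, all longer than 10 kb, lie above 0.

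The day 50 values rest on few cells. Ckap2l, a spindle protein, had 1 UMI in the day 50 brain library and 9 in that of spinal cord, and its log2 ratios of -2.22 over time in brain and 0.77 between tissues at day 50 were not called. Kif20b, with 15 UMIs in brain at day 50, had the highest ratio over time there (0.69) and was not called either. In the day 50 brain library 3 members (Bub1, Cdca2 and Anln) had 0 UMIs, 18 had under 10, and for the median member 75% of UMIs came from 2 cells. The 2 richest cells there held 17 and 16 members after thinning, and the third carrying cell held 5. Without the 2 richest cells of each gene, 21 members were called lower over time in brain in place of 10, and 0 higher. For the median member 2 cells held only 2.79% of UMIs in brain at day 14. Leaving them out therefore favours calls lower at day 50 in advance, and the share of all genes called this way is not given. In the day 50 spinal cord library Nuf2 had 0 UMIs, 7 members had under 10, and the median member had 35.3% of its UMIs in 2 cells. Of the 10 carrying cells there, 4 held at least 10 members. Between tissues at day 50, 3 members were called lower without the 2 richest cells of each gene in place of 12. Here too the removal is unequal, since it takes 75% of the median member's UMIs in brain and 35.3% in spinal cord.

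Other cell cycle lists over time are read against the backgrounds of 11.6% lower and 11.9% higher in spinal cord and 6.15% and 4.91% in brain. Of 35 S phase genes, 20 (57.1%) were called lower in spinal cord and 11 (31.4%) in brain, with medians of -0.72 and -0.55. In spinal cord the lowest were E2f8 (-3.78), a repressor of E2F target genes, and Cdc6 (-2.07), which helps to load the replicative helicase. The second list of G2 and mitosis genes had 28 of 59 lower (47.5%) and 4 higher (6.78%, under the background) in spinal cord, and 15 lower (25.4%) and 0 higher in brain. Of the inhibitors and quiescence genes, 6 of 20 (30%) were called higher in spinal cord: Btg1 (1.19), Cdkn1a (0.90), Cdkn1c (2.61), Cdkn2c (0.88), Foxp1 (0.59) and Tob1 (1.5). In brain 2 of 20 (10%) were called higher, Btg1 (1.03) and Cdkn1a (0.67). In each tissue 1 of the 20 (5%) was called lower. The medians were 0.08 in spinal cord and 0.19 in brain, with 9 and 7 of the 20 genes below 0. Of 10 G1 cyclins and drivers, 3 (30%) were called lower and 1 (10%) higher in spinal cord. In brain 1 of these 10 (10%) was called in each direction.

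Carrying cells were also compared with the other cells of the same library in genes of T cell state, after the same thinning. Tcf7, which encodes the factor TCF1 of memory and stem-like T cells, had a UMI in 5.70% of carrying cells and 22.2% of other cells in brain at day 14, and in 4% and 18.6% in spinal cord. Klf2 had a UMI in 19.4% and 33.6% in brain and in 9% and 20.5% in spinal cord. The intervals of carrying and other cells did not overlap for either gene in either tissue. Cd69, a retention and activation marker, was found in 61.9% of carrying and 61.2% of other cells in brain, and in 33.5% (27.0 to 40.5) and 47.3% (46.3 to 48.4) in spinal cord. Il2ra, the interleukin-2 receptor chain, was found in 13.0% (8.67 to 18.5) and 8.02% (7.46 to 8.60) in spinal cord, and in 5.96% and 4.09% in brain with overlapping intervals. Shares and levels did not always go the same way. Ifng, the cytokine interferon-γ, was found in 34.2% (29.5 to 39.2) of carrying and 28.4% (27.5 to 29.4) of other cells in brain, but its level was 287.6 CPM in carrying and 381.6 CPM in other cells, a log2 ratio between -0.61 and -0.21. In spinal cord its share and its level (387.5 and 374.7 CPM) had intervals that did not separate the groups.

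For Csf2, which encodes the cytokine GM-CSF, and for Gzmb, the cytotoxic protease granzyme B, the intervals of the shares overlapped in spinal cord, while the levels were higher in carrying cells. Csf2 was at 105 and 48.2 CPM, 2.18-fold higher with a log2 interval of 0.64 to 1.57, and Gzmb at 75 and 33.7 CPM, with an interval of 0.57 to 1.68. The 42 and 30 UMIs in carrying cells came from only 10 and 8 of the 200 cells. Intervals of level treat UMIs as independent and do not cover the spread between cells, so these 2 differences rest on few cells. In brain the levels of Csf2 were 40.2 and 42.2 CPM and those of Gzmb 62.2 and 55.2 CPM, with intervals that included 0. Cxcr6, a chemokine receptor of tissue-resident T cells, was at 462.5 CPM in carrying and 584.2 CPM in other cells of spinal cord (interval -0.55 to -0.13), and at 317.4 and 344.9 CPM in brain (-0.31 to 0.06). Il17a, the cytokine of Th17 cells, was at 104.9 and 173.9 CPM in brain (-1.07 to -0.41) and at 55 and 80.8 CPM in spinal cord (-1.23 to 0.05). P2rx7, the ATP receptor gene, had intervals of share and level that did not separate the groups in either tissue.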

How the data were processed

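Sorted mouse T cells were counted by CITE-seq, and each RNA library was deposited as a matrix of whole UMI counts by gene and barcode, neither scaled nor normalized. Cell Ranger 6.1.1 and mm10 were used for it, per the submitters' processing notes. The 34 members and all other lists were chosen with earlier results of these data known. Gene names came from the files; RefSeq (GRCm38.p6) gave locus lengths and promoters, and locus length was used where protein length had been planned.

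Cells were kept if 500 or more genes were detected and mitochondrial UMIs did not exceed 10%. Scrublet (scanpy 1.11.5, expected rate 0.8% per 1000 barcodes) called 0 kept cells in both day 14 libraries and 14 and 17 in the day 50 libraries of brain and spinal cord; these were kept in the main values, and removing them was an alternative. Counts were summed per library and scaled to CPM in Python 3.11.15. Ratios of 2 libraries have exact conditional binomial 95% intervals (scipy 1.17.1), levels exact Poisson and shares Clopper-Pearson ones. Ratios were centred on the median of the genes with at least 10 UMIs over both libraries, a log2 shift of 0.02 over time in brain, -0.29 over time in spinal cord, 0.20 between tissues at day 14 and 0.03 at day 50. A count of 0 was set to a floor of 3 counts per library. Thinning drew 2000 UMIs per cell without replacement and left out shallower cells, 1163 in brain and 142 in spinal cord at day 14 and 98 and 127 at day 50. The ratio and calling steps were tested on simulated counts. Fully described members were 16 genes chosen by role and, per comparison, the 3 highest and 3 lowest. Alternatives covered the cell filters, centring, fold threshold, UMI minimum, thinning, richest cells, list content and carrying-cell definition. The antibody samples have no separate files and their counts were read from the RNA matrices. One marker gene and the sum that rests on it are not reported here.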

Additional observations from a re-analysis of the deposited data

Results flagged for a closer look

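Ube2c, the ubiquitin-conjugating enzyme of the APC/C, stood out because its ratio of day 50 to day 14 had opposite signs in the tissues: the centred log2 ratio was 0.67 in brain (interval 0.36 to 0.96) and -0.77 in spinal cord (-1.16 to -0.40). Each tissue has 1 library per day, so the difference was not tested. In the day 50 brain library 97 UMIs of Ube2c were counted and 97.9% of them came from 2 cells. Without the 2 cells richest in each gene, no member was called higher over time in brain.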

How the results depend on the processing

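With 1 library per group, only counting error is known; the spread between animals is not. No paired analysis was possible because the tissues and days have 1 library each and nothing in the labels links them by mouse. Of 157 alternatives, 115 kept the direction and the side of the threshold (for counts, stayed within 1.5 times); where others did not, the cause was not tested. The 115 include settings that could not move a result. Scaling without ribosomal and mitochondrial genes cancels after centring. Leaving out Scrublet calls removed 0 cells of the day 14 libraries, and a 2-fold threshold cannot raise a count of 0. Alternatives that leave out carrying cells, and those of the S phase share, were chosen after seeing the data. The S phase share ratio at day 14 ran from 0.01 to 0.51, the latter without thinning.

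The summed list over time in brain (-0.39) did not reach 1.5-fold, nor did it in 11 alternatives (-0.41 to -0.14). It passed 1.5-fold in 3, at -0.79 without the 2 richest cells, -0.64 without Hmgb2, Smc4 and Tubb4b, and -0.94 without these genes and the carrying cells. In spinal cord over time its sign turned from 0.10 to -0.19 without centring, to -0.81 without the 3 genes and to -0.33 also without carrying cells. Between tissues at day 14 (-0.63) it missed 1.5-fold at -0.43 without centring, -0.53 centred on genes at 50 CPM or more, -0.44 in thinned cells without carrying cells and -0.41 without these and the 3 genes. At day 50 (-0.28) it was -1.01 without the 3 genes, and turned to 0.043 without the 2 richest cells, 0.035 in thinned cells without carrying cells and 0.039 also without the 3 genes.

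Members called higher over time in brain were 2 by fold alone (25.2% of all genes), and 0 at 2-fold, with no UMI minimum, thinned, or without each gene's 2 richest cells; those lower were 16 with no minimum, 4 thinned and 21 without the richest cells. Over time in spinal cord, 0 were higher without centring, at 2-fold or with no minimum, and 12 lower when thinned. Between tissues at day 14, 1 was higher without centring, centred on genes at 50 CPM or more, with no minimum or without the richest cells; 10 were lower without centring and 6 at 2-fold. At day 50, 2 were higher and 20 lower by fold alone (11.9% and 12.7% of all genes), and 2 were lower thinned and 3 without the richest cells. Leaving out the richest cells takes a larger share of a member's UMIs from the smaller libraries. The share of all genes called is given for fold alone only, so the other counts here cannot be read against a background.

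The carrying share over time in brain no longer excluded 0 with at least 10 members (-1.27) or at least 1% of UMIs (-1.65). With at least 3 members it missed the call over time in spinal cord (-0.27) and between tissues at day 14 (-0.39), and turned to 0.16 between tissues at day 50. Without thinning it was -0.081 at day 14.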

Other observations

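Genes outside the list were ranked by their CPM in carrying cells over other cells of the same day 14 library, among genes at 50 CPM or more in carrying cells. Of the 10 highest in each tissue, 5 were found in both: Esco2, which establishes sister chromatid cohesion, the histone gene Hist1h3c, the DNA glycosylase gene Neil3, Pimreg, and Ska1, which couples kinetochores to microtubules. Ska1 led in brain with 64 UMIs in carrying and 2 in other cells, and Esco2 in spinal cord with 62 and 3. The spinal cord list also held the histone genes Hist1h2ab and Hist1h2ae and the PCNA-associated factor Pclaf, and the brain list held the spindle and kinetochore genes Kif4, Spc25 and Knl1. Carrying cells were defined on the 34 genes, so these ratios are a description.

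Surface antibody counts, which were not thinned, had medians of 15 for CD69 in carrying cells and 9 in other cells of the day 14 spinal cord library, and of 17 and 9 for P2X7R. In the day 14 brain library these medians were 5 and 4 for CD69 and 7 and 5 for P2X7R. CXCR6 had medians of 26 and 22 in spinal cord and 16 and 15 in brain. The RNA depth of carrying cells was also higher, with median UMIs of 9580 against 4913 in spinal cord and 8082 against 4246 in brain, and its part in the antibody counts was not tested. In spinal cord the Cd69 transcript was found in a smaller share of carrying cells than of other cells (33.5% against 47.3%) while the CD69 antibody median was higher.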
